A study of Mus musculus with 12 samples.

Results

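The genes by which astrocytes take up glutamate and GABA, convert glutamate to glutamine and sense both transmitters were followed in astrocytes of mice with 2, 1 or no intact copies of Cd38. The set held 8 of the 20614 genes in the expression table, chosen by name: Slc1a2, Slc1a3, Glul, Slc6a11, Grm3, Grm5, Gabbr1 and Gabbr2, each with 1 row. RNA came from male mice at 12 to 14 months of age (mean 13.5 months), in 3 Cd38+/+, 3 Cd38+/- and 6 Cd38-/- libraries. Astrocytes were pulled from dissected striatum, thalamus and substantia nigra, called midbrain in the labels, with magnetic beads against the astrocyte antigen ACSA-2. All mice were bred from C57BL/6J, and the Cd38 allele (B6.129P2-Cd38tm1Lnd/J) disrupts the gene in every cell of the body from conception, so a difference in astrocytes cannot be assigned to the astrocytes' own Cd38. All 3 genotypes went through papain dissociation in a solution with CNQX and D-AP5, which block ionotropic glutamate receptors. CD38, an ectoenzyme, turns NAD+ into nicotinamide, and the comparisons ask how its partial or full loss relates to astrocyte gene expression.

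At synapses, glutamate is cleared mainly by astrocytes, through the sodium-coupled transporters GLT-1 (Slc1a2) and GLAST (Slc1a3), and glutamine synthetase (Glul) then makes glutamine that is handed back to neurons. GABA is taken up through GAT-3 (Slc6a11), which in the brain is largely astrocytic. Astrocytes also carry the metabotropic receptors mGluR3 (Grm3), coupled to Gi, and mGluR5 (Grm5), coupled to Gq and known to be high in young and low in adult astrocytes, and the GABAB receptor, an obligate pair of the subunits encoded by Gabbr1 and Gabbr2.

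Transcript levels of 6 of the 8 genes, all but Glul and Grm5, followed one order of group means: lowest in Cd38+/+, intermediate in Cd38-/- and highest in Cd38+/-. Of these, Grm3 had the largest log2 fold change against Cd38+/+ in both mutant genotypes, at 83.0 ± 23.4 TPM in Cd38+/+ (SD, n = 3), 138 ± 21.5 in Cd38-/- (SD, n = 6) and 187 ± 5.2 in Cd38+/- (SD, n = 3). Its rise in Cd38-/- over Cd38+/+ was the 1 difference among these genes that passed the test across all genes. That difference did not pass under 9 of 23 other settings. The order of group means also depended on the setting. With a correction for transcript length and GC content, Slc1a2, Slc1a3 and Gabbr2 were lower in Cd38-/- than in Cd38+/+ (log2 fold change -0.11, -0.06 and -0.17). Over all tested genes the median log2 fold change against Cd38+/+ was 0.18 in Cd38+/- and 0.15 in Cd38-/-. For Cd38-/- against Cd38+/- it was -0.02. The share of all genes with this order was not counted. TPM is an expression value divided by transcript length and scaled to the same sum in every library. A gene was called changed when its q-value in limma, a linear model fitted to all expressed genes, was under 0.05 and its change at least 1.2-fold.

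The genotype labels were checked on Cd38 itself, which was 105 to 149 TPM in Cd38+/+, 90.4 to 90.8 in Cd38+/- and 8.54 to 21.9 in Cd38-/-. On the log2 scale Cd38-/- differed from Cd38+/+ by -2.96 (limma q = 0.00116) and from Cd38+/- by -2.52 (limma q = 0.0034), and the Cd38+/- mean differed from Cd38+/+ by -0.44 (limma q = 0.226). Libraries of Cd38+/+ listed fewer genes above 0 (13160 to 13516) than those of Cd38+/- (16160 to 16327) and Cd38-/- (15920 to 17906), with no overlap. No read counts were used here, so depth is unknown, and the part of this gap in any value below was not tested. The labels name no batch and do not say whether a library pooled animals, so the p-values measure the spread between these libraries.

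In each genotype Slc1a3 was the most abundant of the 8 transcripts, ranking between 14 and 36 among all genes of a library. In Cd38+/- and Cd38-/- it was followed by Slc6a11, Glul, Slc1a2, Grm3, Gabbr2, Gabbr1 and Grm5, by mean TPM. In Cd38+/+ the order was Slc1a3, Glul, Slc6a11, Slc1a2, Gabbr2, Grm3, Gabbr1 and Grm5. Neighbors whose library ranges overlapped were Glul with Slc6a11, Gabbr2 with Grm3 and Grm3 with Gabbr1 in Cd38+/+, Grm3 with Gabbr2 in Cd38+/-, and Slc6a11 with Glul, Grm3 with Gabbr2 and Gabbr2 with Gabbr1 in Cd38-/-. The ranges of all other neighbors were apart.

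**Figure D1:**
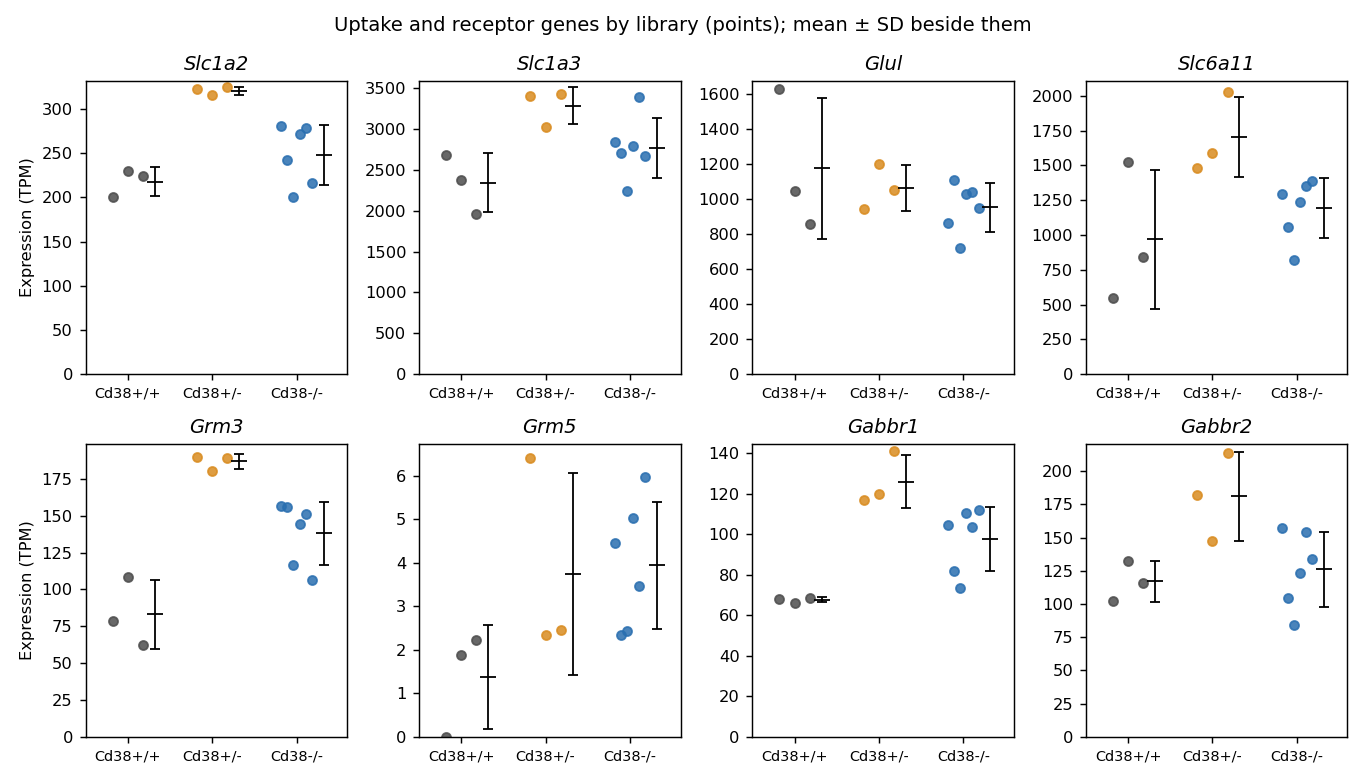
Expression of the 8 genes in TPM (y axis, linear from 0, 1 scale for each gene) in each library (points) of Cd38+/+ (gray), Cd38+/- (orange) and Cd38-/- (blue), with the group mean and SD as a bar beside the points. Slc1a2, Grm3 and Gabbr1 show 3 Cd38+/- libraries above every other library, and Glul shows no such order.

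Promoter sequences were read from the RefSeq table for GRCm38.p6, which held 7 of the 8 members, all but Grm5. Glul, which did not share the order of group means given above, is among the 7. Each entry spans 250 bases before and 50 bases from the RefSeq start of transcription. The 150 bases just before the start are shown for the 4 members whose stretch lies outside every transcript of the GENCODE vM21 annotation and that stand for the transporters and both receptor classes, 5′ to 3′ on the gene's strand, with CG dinucleotides in capitals.
Slc1a3, chr15:8710808-8710957, minus strand: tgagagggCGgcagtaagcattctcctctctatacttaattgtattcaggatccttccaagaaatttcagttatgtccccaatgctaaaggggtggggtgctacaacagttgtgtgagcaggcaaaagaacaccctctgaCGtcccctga
Slc6a11, chr6:114131091-114131240, plus strand: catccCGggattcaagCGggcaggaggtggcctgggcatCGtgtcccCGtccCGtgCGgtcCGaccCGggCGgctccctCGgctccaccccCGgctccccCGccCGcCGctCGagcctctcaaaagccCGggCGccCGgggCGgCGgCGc
Grm3, chr5:9725353-9725502, minus strand: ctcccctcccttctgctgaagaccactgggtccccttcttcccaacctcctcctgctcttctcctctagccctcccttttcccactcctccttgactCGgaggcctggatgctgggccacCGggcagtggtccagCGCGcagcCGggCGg
Gabbr1, chr17:37045816-37045965, plus strand: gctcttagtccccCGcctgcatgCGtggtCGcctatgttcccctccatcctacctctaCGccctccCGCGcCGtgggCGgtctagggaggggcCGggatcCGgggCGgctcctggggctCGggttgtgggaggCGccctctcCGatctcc
The 300-base windows did not look alike: they held 1 CG in Slc1a2, 3 in Slc1a3, 11 in Grm3, 17 in Glul, 18 in Gabbr1, 32 in Slc6a11 and 46 in Gabbr2, against a median of 7 (quartiles 3 and 20) over 32851 promoters of the table. GC content ran from 45.3% in Slc1a3 to 80.3% in Gabbr2, with a median of 52.7% over all promoters. The letters GGGCGG, searched on both strands, stood in 6 of the 7 windows, all but that of Slc1a2, and in 35.7% of all promoters. The letters TATAAA were found in Slc1a3 alone (13.6% of all promoters), and CCAAT in Slc1a3 and Glul (37.4%). The Slc1a2 window belongs to a start within the gene as GENCODE draws it. A match is a description of letters and not a bound site.

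The glutamate transporters come first. Slc1a2 lies on the plus strand at chr2:102658659-102790784 (GRCm38, as are all gene positions here). Its level was 200.0, 230.0 and 225 TPM in the Cd38+/+ libraries, 323, 316 and 325 in Cd38+/-, and 201 to 281 (median 257) in Cd38-/-. All Cd38+/- libraries stood above all others, and 4 of the 6 Cd38-/- libraries stood above every Cd38+/+ library. The log2 fold change was 0.56 (SE 0.14, 95% interval 0.25 to 0.87) in Cd38+/- against Cd38+/+, which did not pass (limma q = 0.176). It was 0.18 (interval -0.12 to 0.47) in Cd38-/- against Cd38+/+ (limma q = 0.253), and -0.38 (interval -0.64 to -0.12) in Cd38-/- against Cd38+/- (limma q = 0.216). The sign of the second value turned with removal of the length and GC trend (-0.11) and with centring on the library mean (-0.05).

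Slc1a3, on the minus strand at chr15:8634124-8710764, was far more abundant than Slc1a2 per transcript length. Its Cd38+/+ libraries had 2688, 2379 and 1964 TPM, the Cd38+/- libraries 3399, 3022 and 3431, and the Cd38-/- libraries 2239 to 3389 (median 2748). Cd38+/- was above Cd38+/+ in every library, while 1 Cd38-/- library, with 3389 TPM, reached into the Cd38+/- range. The log2 fold change was 0.50 (SE 0.15, interval 0.15 to 0.84) in Cd38+/- against Cd38+/+ (limma q = 0.184), 0.24 (interval -0.07 to 0.56) in Cd38-/- against Cd38+/+ (limma q = 0.187) and -0.25 (interval -0.54 to 0.03) in Cd38-/- against Cd38+/- (limma q = 0.355). None of the 3 passed. With the length and GC trend removed the second was -0.06, and centred on astrocyte markers the third was 0.01.

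Within a library, the ratio of Slc1a2 to Slc1a3 does not depend on how that library was scaled. It was 0.0744 to 0.114 in Cd38+/+, 0.0946 to 0.105 in Cd38+/- and 0.081 to 0.0992 in Cd38-/-, so the 3 genotypes overlapped. The gap between the 2 transporters depends on the transcript lengths used for TPM, since the longest annotated transcript has 11595 bases for Slc1a2 and 4435 for Slc1a3.

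Glul, the glutamine synthetase gene at chr1:153899944-153909723 (plus strand), departed from the transporters. TPM was 1627, 1042 and 855 in the Cd38+/+ libraries, 940, 1200.1 and 1051 in Cd38+/-, and 718 to 1109 (median 987) in Cd38-/-. The groups overlapped in every comparison, with the first Cd38+/+ library standing above all others. The log2 fold change was -0.10 (SE 0.23, interval -0.62 to 0.42) in Cd38+/- against Cd38+/+ (limma q = 0.545), and without the first Cd38+/+ library it was 0.16. In Cd38-/- it was -0.27 (interval -0.69 to 0.15) against Cd38+/+ (limma q = 0.24), 0.00 without the first and -0.47 without the third Cd38+/+ library, and -0.17 (interval -0.48 to 0.14) against Cd38+/- (limma q = 0.498), the latter 0.10 when centred on astrocyte markers. Set against Slc1a2, Glul was 3.81 to 8.14 times as high in Cd38+/+, 2.91 to 3.8 times in Cd38+/- and 3.07 to 4.59 times in Cd38-/-. Every Cd38+/- ratio was under every Cd38+/+ ratio, by a narrow margin of 3.8 to 3.81.

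The GABA transporter Slc6a11 (chr6:114131241-114249952, plus strand) was the most variable of the 7 members tested in Cd38+/+, with 548, 1522 and 841 TPM and a coefficient of variation of 51.5%. The Cd38+/- libraries had 1483, 1592 and 2028 TPM, and the Cd38-/- libraries 822 to 1391 (median 1266). Each Cd38-/- library lay under each Cd38+/- library, whereas Cd38+/+ overlapped with both. The log2 fold change was 0.92 (SE 0.32, interval 0.19 to 1.66) in Cd38+/- against Cd38+/+ (limma q = 0.2), 0.40 (interval -0.18 to 0.98) in Cd38-/- against Cd38+/+ (limma q = 0.215) and -0.52 (interval -0.90 to -0.15) in Cd38-/- against Cd38+/- (limma q = 0.23). The second became 0.79 and passed (limma q = 0.0278) without the second Cd38+/+ library, which held 1522 TPM, and it was 0.05 (limma q = 0.461) without the first, which held 548 TPM.

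**Figure D2:**
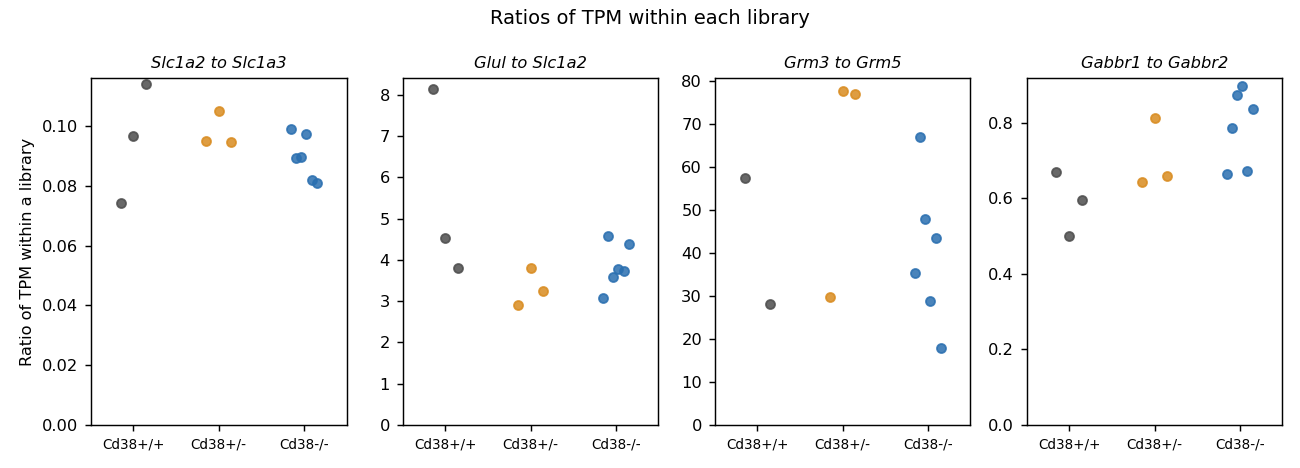
Ratio of TPM of paired genes within each library (y axis, linear from 0, no unit) by genotype, 1 point for each library (the Cd38+/+ library that listed Grm5 at 0 has no point for Grm3 to Grm5). Slc1a2 to Slc1a3 overlapped between genotypes, and the Glul to Slc1a2 ratio of the first Cd38+/+ library stands at 8.14.

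Among the receptors, Grm3 (chr5:9485541-9725170, minus strand) had the largest log2 fold change of the 7 tested members in both comparisons with Cd38+/+, and not in Cd38-/- against Cd38+/-, where Gabbr2 and Slc6a11 exceeded it. Its TPM was 78.6, 108 and 62.2 in the Cd38+/+ libraries, 190.2, 181 and 189 in Cd38+/-, and 106 to 156 (median 148) in Cd38-/-. The Cd38+/- libraries stood above all others, and 5 of 6 Cd38-/- libraries stood above every Cd38+/+ library. Grm3 rose in Cd38-/- against Cd38+/+, with a log2 fold change of 0.75 (SE 0.19, interval 0.34 to 1.16, 1.68-fold, limma q = 0.0304). Across 23 other settings that difference was 0.36 to 0.96, always higher in Cd38-/-, and the call was lost in 9, among them Benjamini-Hochberg adjustment (adjusted p = 0.0538), library weights (limma q = 0.395), centring on astrocyte markers (0.60, limma q = 0.0656) and leaving out Cd38-/- replicate 1, 2 or 5 (limma q = 0.0744, 0.0797 and 0.0742). In Cd38+/- against Cd38+/+ it was 1.19 (SE 0.22, interval 0.71 to 1.68), which did not pass (limma q = 0.158, the lowest value in that comparison and tied over several genes, Gabbr1 and Gfap among them). Cd38-/- against Cd38+/- gave -0.44 (interval -0.73 to -0.16, limma q = 0.196). Cd38 lies on the same chromosome as Grm3, at chr5:43868553-43912375. Any part of sequence linked to the targeted allele in the Grm3 values was not tested.

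Grm5 (chr7:87584168-88134907, plus strand) was near the lower end of expression, ranking between 10901 and 13460 in a library. The Cd38+/+ libraries held 0, 1.89 and 2.22 TPM, with 6.41, 2.33 and 2.46 for Cd38+/- and 2.33 to 5.97 (median 3.96) for Cd38-/-. No group mean reached 5 TPM, the minimum for the test across genes. Every Cd38+/- and Cd38-/- library was above every Cd38+/+ library. With no filter on low values the log2 fold change was 1.07 in Cd38+/- against Cd38+/+ (limma q = 0.253), 1.18 in Cd38-/- against Cd38+/+ (limma q = 0.0678) and 0.11 in Cd38-/- against Cd38+/- (limma q = 0.677). Without the Cd38+/+ library at 0 the first 2 values were 0.53 and 0.64, and over all settings they ran from 0.44 to 2.15 and from 0.49 to 2.31, the ends being the pseudocounts of 5 and 0.1. The second passed in 3 of 21 settings (limma q = 0.0488 in one fit over all libraries, 0.0488 without Cd38+/+ replicate 2 and 0.0279 without replicate 3). The Cd38+/+ libraries, which listed Grm5 lowest, are also those with fewer genes above 0, and the part of detection in this difference was not tested. Grm3 was 17.8 to 77.5 times as abundant as Grm5 in the 11 libraries that listed Grm5 above 0.

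The GABAB subunit gene Gabbr1 (chr17:37045966-37075067, plus strand) was even among Cd38+/+ libraries, at 68.3, 66.2 and 68.8 TPM. It was 117, 120 and 141 TPM in Cd38+/-, and 73.5 to 112 (median 104) in Cd38-/-. The 3 genotypes did not overlap at all, the only member for which this held. The log2 fold change was 0.88 (SE 0.17, interval 0.49 to 1.27) in Cd38+/- against Cd38+/+ (limma q = 0.158), 0.50 (SE 0.16, interval 0.16 to 0.85) in Cd38-/- against Cd38+/+ (limma q = 0.0521) and -0.37 (interval -0.69 to -0.06) in Cd38-/- against Cd38+/- (limma q = 0.277). The second value passed without the filter on low values (limma q = 0.0344), with all 12 libraries in one fit (limma q = 0.0263), without the third Cd38+/+ library (limma q = 0.0341) and without the third Cd38-/- library (limma q = 0.0388). It did not pass in the other 19 settings, and was 0.26 (limma q = 0.169) with the length and GC trend removed, 0.28 (limma q = 0.154) centred on the library mean and 0.34 (limma q = 0.48) with the replicate block.

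Its partner Gabbr2 (chr4:46662305-46991873, minus strand) had 102, 133 and 116 TPM in Cd38+/+, 182, 148 and 214 in Cd38+/-, and 84.1 to 157 (median 129) in Cd38-/-. Cd38-/- libraries lay on both sides of the Cd38+/+ range, and 4 of 6 were under every Cd38+/- library. The log2 fold change was 0.62 (SE 0.19, interval 0.19 to 1.06) in Cd38+/- against Cd38+/+ (limma q = 0.184), 0.09 (interval -0.34 to 0.51) in Cd38-/- against Cd38+/+ (limma q = 0.467) and -0.54 (interval -0.96 to -0.11) in Cd38-/- against Cd38+/- (limma q = 0.259). The second value had no stable sign, ranging from -0.17 to 0.19 over the settings tried. Gabbr1 to Gabbr2 was 0.499 to 0.669 in Cd38+/+, 0.642 to 0.811 in Cd38+/- and 0.664 to 0.897 in Cd38-/-, and Cd38+/+ overlapped with Cd38-/- only between 0.664 and 0.669.

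**Figure D3:**
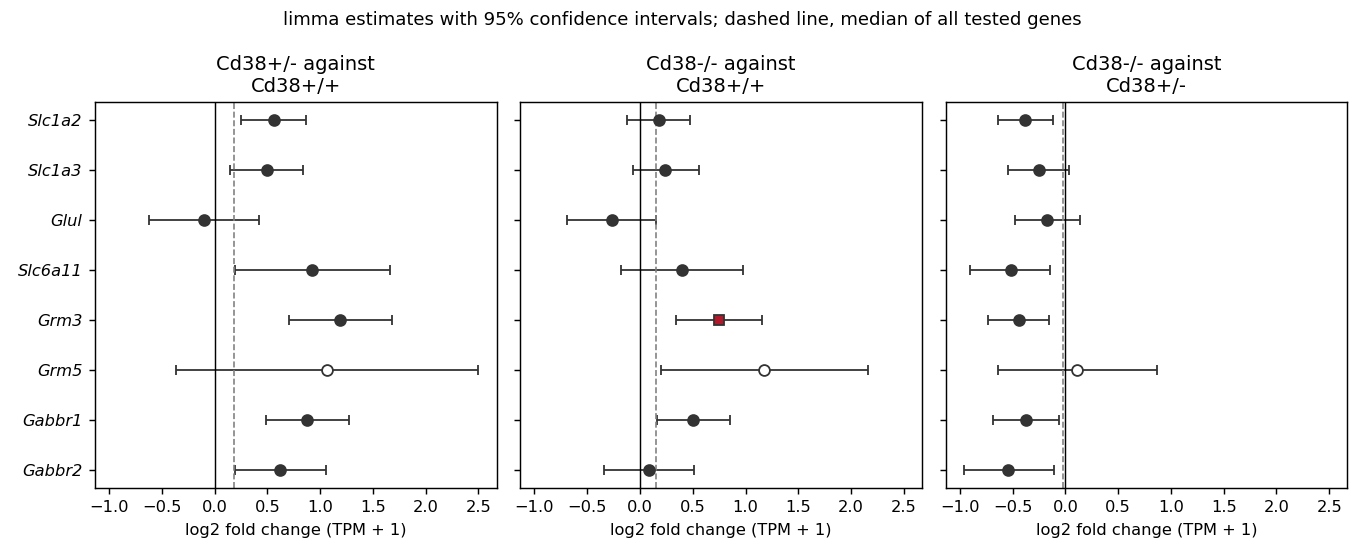
Log2 fold change of TPM + 1 (x axis) with its 95% confidence interval for each of the 8 genes in the 3 comparisons. The red square passed the test, the filled circles did not, and the open circle (Grm5) is from the fit without a filter on low values. The dashed gray line is the median of all tested genes, at 0.18, 0.15 and -0.02.

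Read as a group, none of the 7 tested members was called in Cd38+/- against Cd38+/+ by limma, where 0 of all 11763 tested genes were called (0% of them). An unadjusted p under 0.05 was reached by 6 of 7, all higher, against 9.5% of all tested genes in that direction (1117 higher, with 469 lower). The members and lists were chosen with earlier results of these data known. Their shares, here and in the comparisons below, are therefore a description and not a test of the set. Of 10 astrocyte markers, described below, 4 reached it, all higher, as did 5 of 12 other glutamate receptors. Every Cd38+/- library was above every Cd38+/+ library for 5 of 7, against 15.5% of all genes and 4 of 10 astrocyte markers. Of these members 3 (Slc1a2, Grm3 and Gabbr1) were called when genes of low expression were kept in the fit, and 5 when all 12 libraries were fitted together, settings under which 663 of 17204 and 1464 of 11763 genes were called. The members' median log2 fold change was 0.62, beside 0.18 over all genes.

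Grm3 was the 1 of 7 members called in Cd38-/- against Cd38+/+, where 8.28% of all 11722 genes were called, 752 higher and 218 lower. An unadjusted p under 0.05 was reached by 2 of 7 in the higher direction (Grm3 and Gabbr1), against 17.6% of all genes, and no overlap with every library higher was seen for 1 of 7 (Gabbr1), against 8.21%. The members' median was 0.24, beside 0.15 over all genes, so this set stood close to the background here. The split of all called genes moved with the scaling, to 530 higher and 381 lower under median-ratio scaling and to 421 higher and 887 lower with the length and GC trend removed.

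No member was called by limma in Cd38-/- against Cd38+/-, where 0.0346% of all 11563 genes (4 genes) were called. The estimate was under 0 for each of the 7 tested members, with a median of -0.38 beside -0.02 over all genes. An unadjusted p under 0.05 was reached by 5 of 7, all lower, against 5% of all genes and 5 of 10 astrocyte markers, all lower. Every Cd38-/- library lay under every Cd38+/- library for 4 of 7 (Slc1a2, Slc6a11, Grm3 and Gabbr1), against 2.88% of all genes and 0 of 10 astrocyte markers. Related lists described below also held such genes. They were 2 of 6 tested GABAA subunit genes, 2 of 8 other GABA transport and metabolism genes and 2 of 11 other glutamate receptors. The same held for 2 of 18 other glutamate and glutamine genes and 3 of 21 receptor and transporter partners. With library weights 6 members passed, all lower, but 3120 of all genes then did as well. Because the 3 comparisons share libraries, their directions are not separate pieces of evidence.

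Each member was in addition put to an exact permutation test, two-sided, on mean log2(TPM + 1), giving 24 unadjusted tests. In Cd38+/- against Cd38+/+, 6 members (Slc1a2, Slc1a3, Grm3, Grm5, Gabbr1 and Gabbr2) reached exact p = 0.1, the smallest that 3 against 3 libraries allow. This value restates that their groups did not overlap and adds nothing to that. Of all 11763 tested genes, 1826 (15.5%) were higher without overlap and 816 were lower without overlap. For Grm5, which was outside that test, the gap was 2.33 against 2.22 TPM. For Cd38-/- against Cd38+/+ the exact p was 0.0119 for Grm5, the smallest that 6 against 3 allow, 0.0238 for Grm3 and 0.0357 for Gabbr1, and 0.179 or more for the others. The Grm5 gap was again 2.33 against 2.22 TPM, with 1 Cd38+/+ library at 0. Of all 11722 tested genes, 962 (8.21%) were higher and 424 were lower without overlap in that comparison. In the first comparison Slc6a11 had exact p = 0.2 and Glul exact p = 0.9. For Cd38-/- against Cd38+/- the exact p was 0.0238 for Slc1a2, 0.0357 for Slc6a11 and Grm3, 0.0595 for Gabbr1 and Gabbr2, 0.0833 for Slc1a3, 0.298 for Glul and 0.798 for Grm5.

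Most astrocyte markers also had their highest mean in Cd38+/- (8 of 10), the exceptions, named after their values were seen, being Sox9 (372 TPM in Cd38+/+, 325 in Cd38+/- and 296 in Cd38-/-) and S100b (214, 226 and 286). The 10 astrocyte markers summed to 10609 to 15115 TPM in Cd38+/+, 14407 to 16973 in Cd38+/- and 10946 to 14917 in Cd38-/-, ranges that overlap, with Aldoc and Gja1 the most abundant. Their median log2 fold change was 0.24 in Cd38+/- against Cd38+/+, 0.15 in Cd38-/- against Cd38+/+ and -0.30 in Cd38-/- against Cd38+/-, where 9 of 10 were under 0. In these bulk libraries, fewer astrocytes and less RNA of a gene per astrocyte cannot be told apart. Each library was then centred on the mean, not the median, of these markers, a setting chosen after seeing the data. That mean takes in Gfap, at 288 TPM in Cd38+/+ and 743 in Cd38+/-. Centring moved all genes by -0.42 in Cd38+/- against Cd38+/+ and by 0.27 in Cd38-/- against Cd38+/-. The difference between Cd38+/- and Cd38+/+ was then 0.78 for Grm3, 0.51 for Slc6a11, 0.46 for Gabbr1, 0.20 for Gabbr2, 0.14 for Slc1a2, 0.08 for Slc1a3 and -0.51 for Glul. The same centring left -0.27 for Gabbr2, -0.26 for Slc6a11, -0.18 for Grm3, -0.12 for Slc1a2, -0.11 for Gabbr1, 0.01 for Slc1a3 and 0.10 for Glul in Cd38-/- against Cd38+/-. Other scalings were median-ratio, quantile, centring on the library mean and removal of the length and GC trend. The median shift of a gene under them was -0.12 to -0.26 in the comparisons with Cd38+/+ and 0.01 in Cd38-/- against Cd38+/-. Relative to the median of all genes, 6 of 7 members were above it in Cd38+/- against Cd38+/+, 5 of 7 in Cd38-/- against Cd38+/+ and 0 of 7 in Cd38-/- against Cd38+/-. Centring shifts all genes of a library alike and cannot alter this, while quantile scaling gave 6, 6 and 0 and removal of the length and GC trend 6, 4 and 0.

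Gfap, the intermediate filament of reactive astrocytes, was the 1 astrocyte marker called, with a rise of 1.00 in Cd38-/- against Cd38+/+ (limma q = 0.0175, every library higher). Markers of regional astrocytes were not called: Mfge8 and Slc7a10 led the telencephalic list and Agt and Slc6a9 the non-telencephalic one, with list medians of -0.01 and 0 in that comparison. Of the other cell types, 11 neuron markers summed to 216 to 275 TPM in Cd38+/+, 277 to 343 in Cd38+/- and 268 to 362 in Cd38-/-, with Th and Slc6a3 at 0 in each Cd38+/+ library and Ppp1r1b called (0.41, limma q = 0.0477). Ppp1r1b made up most of that sum, at 178, 259 and 235 TPM by mean, whereas the list's median log2 fold change was -0.40 in Cd38+/- and -0.12 in Cd38-/- against Cd38+/+, with 2 and 3 of 7 tested markers above 0. Oligodendrocyte markers, led by Mbp and Mobp, ranged from 1295 to 7183, 3089 to 11014 and 3173 to 17799 TPM in the same order, with none of 7 called. Microglia markers summed to 98.4 to 102 TPM in Cd38+/+, 121 to 138 in Cd38+/- and 106 to 135 in Cd38-/-, with Cx3cr1 and Tmem119 at 0 in each Cd38+/+ library and P2ry12 called (1.98, limma q = 0.0479). Endothelial markers fell in the ranges 423 to 1946, 347 to 701 and 379 to 1277 TPM, none called, and none of the oligodendrocyte precursor, mural or fibroblast markers was called. Of 6 ependymal and choroid plexus markers, Ttr (6.02, limma q = 0.0291) and Folr1 (1.14, limma q = 0.018) were called, the list summing to 1619 to 2865, 1715 to 8676 and 2046 to 4493 TPM. Mean TPM of Ttr was 74.3 in Cd38+/+ and 606 in Cd38-/-. The value of 6.02 is a difference of mean logs and is larger than the log2 ratio of these means. The 10 genes of the dissociation response summed to 383 to 758 TPM in Cd38+/+, 247 to 472 in Cd38+/- and 327 to 716 in Cd38-/-. Their median log2 fold change was -0.64 in Cd38+/- against Cd38+/+, with 1 of 9 tested above 0, and -0.20 in Cd38-/- against Cd38+/+, where Junb fell by 1.03 (limma q = 0.0249). All these calls were in Cd38-/- against Cd38+/+, and the part of other cells or of dissociation in the members' values was not tested.

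Over the 5 lists of genes around uptake that follow, 5 of 65 tested genes were called in Cd38-/- against Cd38+/+ (7.69%), beside 8.28% of all genes. Of 24 other genes of glutamate and glutamine transport and metabolism, 18 were tested. Slc38a3, a transporter that releases glutamine from astrocytes, rose by 0.38 in Cd38-/- against Cd38+/+ (SE 0.11, limma q = 0.0447), from 342 to 445 TPM, and Slc38a5, a related transporter, fell by 1.31 (SE 0.37, limma q = 0.0399), from 34.7 to 13.2 TPM. Slc25a18, a mitochondrial glutamate carrier and the most abundant of the list, differed by -0.05 (limma q = 0.481). The list's medians were 0.26, 0.03 and -0.11 in the 3 comparisons, in the order Cd38+/- against Cd38+/+, Cd38-/- against Cd38+/+ and Cd38-/- against Cd38+/-.

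Of 11 other GABA transport and metabolism genes, 8 were tested and none was called in any comparison by limma, with 3, 2 and 0 higher and 0, 0 and 2 lower at an unadjusted p under 0.05. Abat, the GABA transaminase, averaged 242, 361 and 307 TPM in Cd38+/+, Cd38+/- and Cd38-/-.

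Other glutamate receptors were led by the AMPA subunits Gria2 and Gria1. Gria2 averaged 115 TPM in Cd38+/+, 192 in Cd38+/- and 160 in Cd38-/-, and Gria1 82.3, 136 and 109. None of the 12 tested genes of this list was called by limma against Cd38+/+ and none of 11 against Cd38+/-, with 5, 2 and 0 higher and 0, 0 and 2 lower at an unadjusted p under 0.05, and medians of 0.66, 0.30 and -0.28. Grm2, Grin2a and Grik1 were listed at 0 in every Cd38+/+ library. Of 13 GABAA subunit genes 6 were tested, and Gabra4 rose in Cd38-/- against Cd38+/+ by 0.63 (SE 0.19, limma q = 0.0493), from 21.5 to 33.7 TPM, with every library higher. Gabrb1 and Gabrg1 were the most abundant of that list, Gabrg1 at 79.3, 156 and 119 TPM in Cd38+/+, Cd38+/- and Cd38-/-.

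Of 22 partners of these receptors and transporters, 2 were called in Cd38-/- against Cd38+/+, where 21 were tested. Gnai3, an inhibitory G protein subunit, rose by 0.52 (SE 0.16, limma q = 0.0461), and Rgs4, a regulator that shortens G protein signaling, by 0.89 (SE 0.22, limma q = 0.0305). Atp1b2, which encodes the ACSA-2 antigen used for the pull-down, averaged 1630 TPM in Cd38+/+, 2174 in Cd38+/- and 1333 in Cd38-/- and was not called (limma q = 0.236, 0.275 and 0.2).

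**Figure D4:**
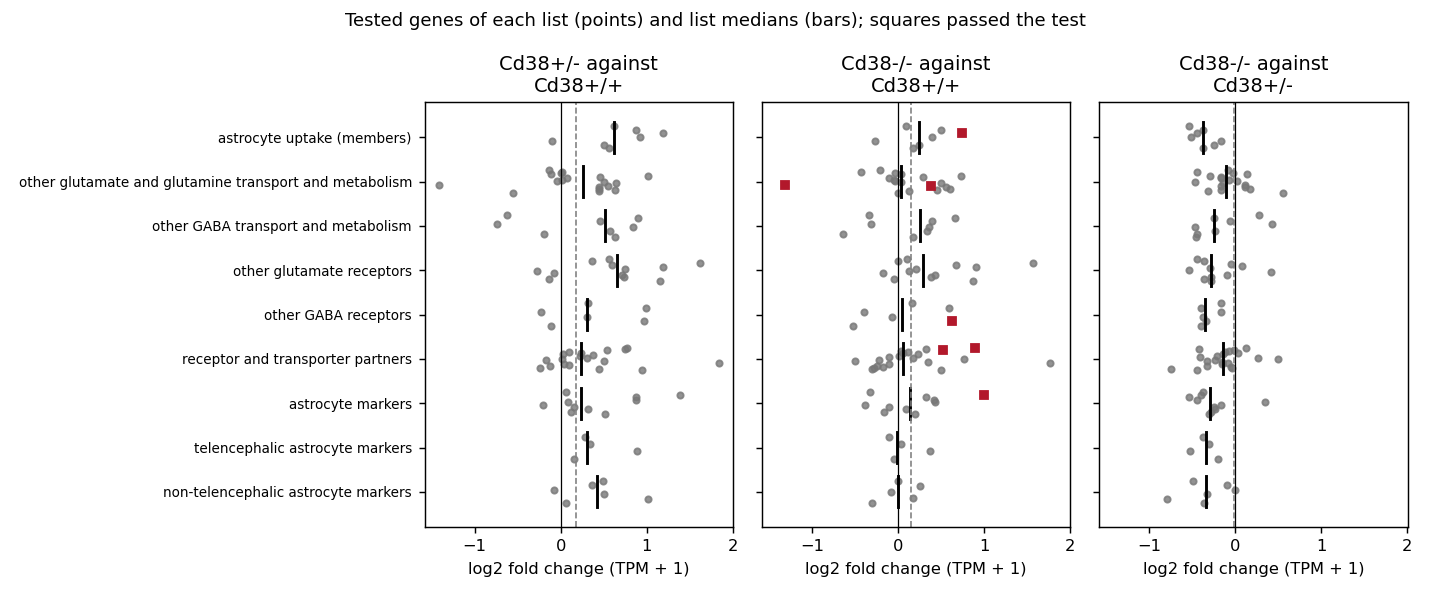
Log2 fold change of TPM + 1 (x axis) of each tested gene (points) of the uptake genes and of 8 related lists (rows) in the 3 comparisons, with the list median as a black bar and the median of all tested genes as a dashed line. Red squares passed the test, all of them in Cd38-/- against Cd38+/+. Each list median lies under 0 in Cd38-/- against Cd38+/-.

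Over the 12 libraries, the 6 genes with the shared order correlated with each other at r = 0.58 to 0.85 (Pearson, log2(TPM + 1), 15 pairs), as a description without a test, since the points share library scaling and genotype. Glul correlated with the other 7 at r = -0.64 to 0.32. Outside the set, the genes most like each member were Sirpa, Pcdh7 and Tlr3 for Slc1a2 (r = 0.958, 0.947 and 0.946), Ank2, Washc2 and Mical2 for Slc1a3 (0.969, 0.959 and 0.954) and St8sia5, Gjb2 and Ubald1 for Glul (0.915, 0.884 and 0.884). Slc6a11 was closest to Slc39a3, Snx14 and Lfng (0.98, 0.943 and 0.937). Grm3 was closest to Gabra4, C4b and Bmpr1b (0.977, 0.957 and 0.954), the first of them the GABAA subunit gene called above, and Grm5 to Lacc1, Zswim4 and Sfxn2 (0.891, 0.884 and 0.881). Gabbr1 was closest to Lpcat1, Slc12a9 and Erbb4 (0.971, 0.944 and 0.939), and Gabbr2 to Adcyap1r1, Slc6a9 and Gpr155 (0.957, 0.952 and 0.945). These were the top of 11363 genes for each member (11364 for Grm5), and no member was among the 3 genes most like another.

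**Figure D5:**
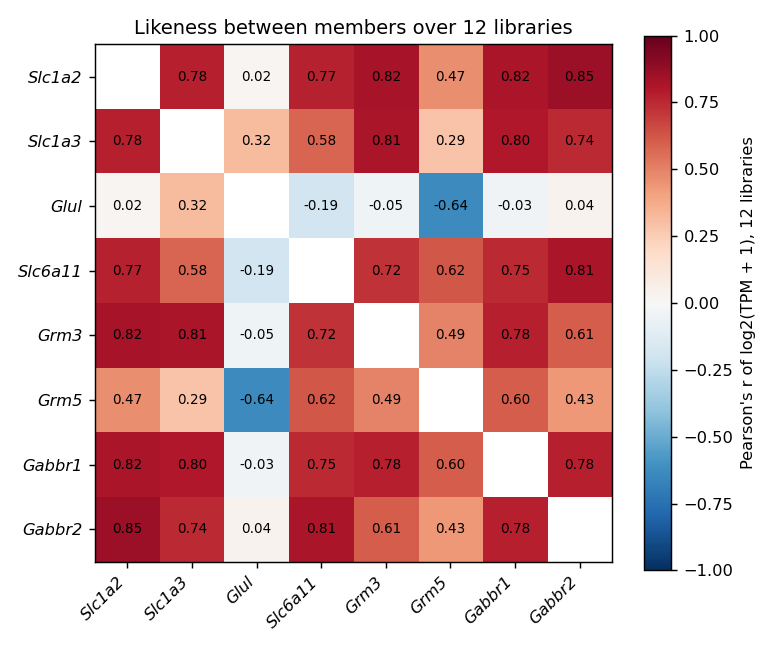
Pearson's r of log2(TPM + 1) between the 8 genes over 12 libraries (color from blue, -1, to red, 1, with the value in each cell). All but Glul and Grm5 form a block at 0.58 to 0.85, and the lowest value is between Glul and Grm5 at -0.64.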

How the data were processed

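RNA of ACSA-2 bead-isolated astrocytes was sequenced in 12 libraries, grouped by the genotype in the labels. The study describes ribosomal RNA depletion, whereas the labels give polyA RNA. The authors prepared cDNA from small amounts of RNA (SMART-Seq), trimmed reads with Trim Galore (v 0.6.4), mapped them to mm10 with STAR (v 2.7.1a) and quantified genes with RSEM (v 1.2.28), as the submitters' processing notes also list. The deposited values are TPM, 1 column per library, not pooled, summing to about 1000000 in each, so read depth is unknown. TPM is relative within a library, so a gene can move because others did.

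Here, log2(TPM + 1) was fitted, for genes whose mean passed 5 TPM in either compared group, with limma 3.58.1 (eBayes with trend, R 4.3.3), with only the compared groups in each fit, and Storey q-values were taken over all genes tested. A call needed a 1.2-fold change or more and q under 0.05. Fold changes are on the log2(TPM + 1) scale and understate those of low genes. On simulated data with 200 changed genes minus those filtered, the fit recovered 14 of 98 genes changed by a log2 of 1 and 47 of 96 changed by 2 for Cd38+/- against Cd38+/+ (11210 genes), 44 of 100 and 81 of 98 for Cd38-/- against Cd38+/+ (11243 genes), and 75 of 100 and 98 of 100 for Cd38-/- against Cd38+/- (11366 genes). False calls were 6.15%, 5.3% and 2.81% of the calls. Each simulated gene was drawn on its own from a normal distribution, without shifts shared by the genes of a library. The recovered shares and false calls therefore need not hold for the real libraries. Figures used matplotlib 3.10.9 and Python 3.11.15. Gene positions came from GENCODE vM21 on GRCm38.

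The members and lists were chosen with earlier results of these data known. Named were all members, Cd38, every called gene and the 2 most abundant genes of each list, and the 3 genes most like each member. Some genes under this rule are not reported here. The alternatives tried were leaving out each library, a replicate block, one fit over all libraries, median-ratio or quantile scaling, a correction of every library for transcript length and GC content, library weights, eBayes without trend, Benjamini-Hochberg adjustment, a pseudocount of 0.1 or 5, and a filter that was dropped or set to 1 TPM in every library. Centring on astrocyte markers and on the library mean was added after seeing the data.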

Additional observations from a re-analysis of the deposited data

How the results depend on the processing

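Depth is unknown, so what it limits could not be measured. Of 522 values of single members under other settings, 475 kept their direction and their side of the threshold, 9 lost a call, 23 gained one and 15 changed sign, and the cause of these changes was not tested. The 9 lost calls are all of Grm3 in Cd38-/- against Cd38+/+, where q ran from 0.00861 to 0.395; beside those given above, it was lost with the replicate block (0.80, limma q = 0.318), with the length and GC trend removed (0.36, limma q = 0.123) and centred on the library mean (0.53, limma q = 0.0574).

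In Cd38+/- against Cd38+/+, the 0 genes called became 663 with no filter (603 higher, 60 lower), 9 without the trend and 30 with library weights. They became 1464 with all libraries in one fit, 4 with the replicate block and 536 when centred on astrocyte markers (7 higher, 529 lower). Leaving out 1 library gave 0 to 10, the 10 without Cd38+/+ replicate 3. The members called were 3 with no filter, 1 with library weights, 5 in one fit and 0 without any 1 library. The 970 calls in Cd38-/- against Cd38+/+ became 2283 with no filter, 326 with Benjamini-Hochberg adjustment, 1 with library weights, 1822 in one fit, 2 with the replicate block and 318 when centred on astrocyte markers (153 higher, 165 lower). The split was 563 higher and 552 lower with quantile scaling and 458 higher and 906 lower centred on the library mean. Leaving out 1 library gave 74 (without Cd38-/- replicate 2) to 3119 (without Cd38+/+ replicate 3) calls. The members called were 2 with no filter, 2 in one fit, 0 with Benjamini-Hochberg adjustment, library weights, the replicate block, the length and GC trend removed or either centring, and 0 to 2 without 1 library. The 4 calls in Cd38-/- against Cd38+/- became 3120 with library weights, 1 with median-ratio scaling, 1 in one fit, 2 with the replicate block, 883 centred on astrocyte markers (876 higher, 7 lower), 1 centred on the library mean, and 0 (without Cd38+/- replicate 3) to 93 (without Cd38-/- replicate 4). Members called were 6 with library weights and 0 without any 1 library.

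Signs changed for Glul in Cd38+/- against Cd38+/+ (-0.30 to 0.16 when 1 library was left out). In Cd38-/- against Cd38+/+ they changed for Slc1a2 (-0.11 with the length and GC trend removed, -0.05 centred on the library mean), Slc1a3 (-0.06 with that trend removed) and Gabbr2 (-0.04 with median-ratio scaling, -0.06 with the replicate block, -0.17 with the length and GC trend removed, -0.07 centred on astrocyte markers, -0.14 on the library mean, and -0.01 to 0.19 without 1 library). They also changed in Cd38-/- against Cd38+/- for Slc1a3 (0.01) and Glul (0.10) centred on astrocyte markers and for Grm5, fitted without the filter (-0.15 with the replicate block, and -0.09 to 0.49 without 1 library). Libraries with the same replicate number had deviations with r above 0.1 in 1 of the 9 pairs (replicate 1 of Cd38-/- and Cd38+/-, 0.501). The other values were -0.003 to 0.051 in Cd38+/- against Cd38+/+, -0.095 to -0.041 in Cd38-/- against Cd38+/+, and -0.317 and -0.003 in Cd38-/- against Cd38+/-, so the numbers were not taken to pair the libraries.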
